A study of Mus musculus with 4 samples.

Results

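The genes described here are 32 genes of cholesterol and fatty acid synthesis, measured by bulk RNA sequencing in AMs (alveolar macrophages), which live in the air spaces of the lung. They were taken from a count table of 54532 mouse genes by their gene name, and all 32 were found. They fall into 18 enzymes of the cholesterol pathway from acetoacetyl-CoA to the last reductases, 6 genes that control this pathway through the sterol regulatory element-binding proteins (SREBPs) or carry cholesterol inside the cell, and 8 enzymes of fatty acid synthesis and desaturation. The AMs were purified from the lungs of wild-type female mice, BALB/c mice aged 8 to 10 weeks according to the methods of the study. The 2 control libraries came from mice that received no tumor cells, and the 2 tumor libraries from mice that carried a primary 4T1 tumor for 2 weeks. 4T1 is a mouse mammary carcinoma cell line, placed into the mammary fat pad of mice of the same strain, so the AMs are lung cells at a distance from the primary tumor. The AMs that the study isolated for staining were CD45+ CD11b- CD11c+ Siglec-F+ cells, and for sequencing its methods name purified AMs without a gate. The labels do not say whether the libraries of a group came from separate or pooled mice, so the p-values below measure the spread between these libraries, which may be technical.

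Cells build cholesterol from acetyl-CoA through mevalonate, isoprenoid diphosphates, squalene and lanosterol, and build fatty acids from acetyl-CoA through malonyl-CoA. In sterol-poor cells the escort protein SCAP carries SREBP from the endoplasmic reticulum to the Golgi, where proteases free the part that enters the nucleus and raises transcription of these enzymes. In sterol-rich cells INSIG proteins hold the SCAP-SREBP complex back. AMs take up and break down surfactant, a mixture rich in phospholipids and cholesterol, and are therefore exposed to large amounts of lipid.

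The libraries held 16167147 to 19205737 counts, and their scaling factors by the trimmed mean of M values (TMM) lay between 0.977 and 1.02. Levels are in CPM, counts brought to a common total after TMM scaling of the libraries, and a single library could not be told from 0 below 0.153 to 0.190 CPM, the worth of 3 counts. In the labelled cell type, 15 AM marker genes were all tested, and 13 were lower in tumor AMs, 1 was higher and 1 did not pass the test. Their summed level was 16561 and 16713 CPM in the control libraries against 12637 and 12790 CPM in the tumor libraries, 76.4% of the control level. Markers of other cell types differed between the groups. The 10 hepatocyte markers summed to 0.533 and 1.08 CPM in control and to 689 and 680.4 CPM in tumor libraries, with 8 of the 10 at 0 in both control libraries. The most abundant of them, albumin (Alb), was at 0 without a tumor and at 464 and 477 CPM with one. The 11 neutrophil markers summed to 48.0 and 48.2 CPM in control against 3864 and 3827 CPM in tumor libraries, the 5 eosinophil markers to 0.480 and 0.507 against 2224 and 2204 CPM, and the 6 basophil and mast cell markers to 2.29 and 2.03 against 523 and 529 CPM. All genes of these 4 lists were called higher in tumor libraries, and their part in the results below was not tested. In bulk libraries, fewer cells of a type and less RNA per cell cannot be told apart.

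The question was how the synthesis genes of AMs differed between mice with and without a tumor. Most were lower in tumor AMs, and in summed level the cholesterol enzymes stood lower relative to control than the other classes, a difference between classes that was not tested. The 18 cholesterol enzymes summed to 911 and 893 CPM in the control libraries and to 454 and 452 CPM in the tumor libraries, 50.2% of the control level. The 6 control genes summed to 676 and 680.3 CPM in control against 510.4 and 512 CPM in tumor, or 75.4%. The 8 fatty acid enzymes summed to 813 and 809.8 CPM in control against 646 and 633 CPM in tumor, or 78.8%. For each of the 3 classes both tumor libraries lay below both control libraries. Together the 32 genes took 0.233% to 0.234% of all counts in the control libraries and 0.163% to 0.165% in the tumor libraries.

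By edgeR's quasi-likelihood test with Benjamini-Hochberg adjustment over the 14256 genes tested, at a threshold of 0.05, 27 of the 32 genes differed between the groups, where 53.8% of all tested genes did. Of these, 24 were lower in tumor AMs, against 24.8% of all tested genes, and 3 were higher, against 29% of all tested genes. The 5 that did not pass were Acat2, Pmvk, Tm7sf2, Insig2 and Acly. The median log2 fold change, tumor minus control and over all 32 genes, was -0.52, that of all tested genes was 0.02 and that of the 15 AM markers was -0.47. By size, 15 of the 32 were called and at least 1.5-fold lower, as were 7.92% of all tested genes, and 9 were called and at least 2-fold lower, as were 3.01% of all tested genes. The control and tumor libraries did not overlap in level for any of the 32 genes, and the same held for 75.1% of all tested genes. Among the cholesterol enzymes, 15 of 18 were called, all 15 lower, with a median of -0.74. Among the SREBP control genes, 4 of 6 were lower and 1 was higher, with a median of -0.27. Among the fatty acid enzymes, 5 of 8 were lower and 2 were higher, with a median of -0.45.

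**Figure D1:**
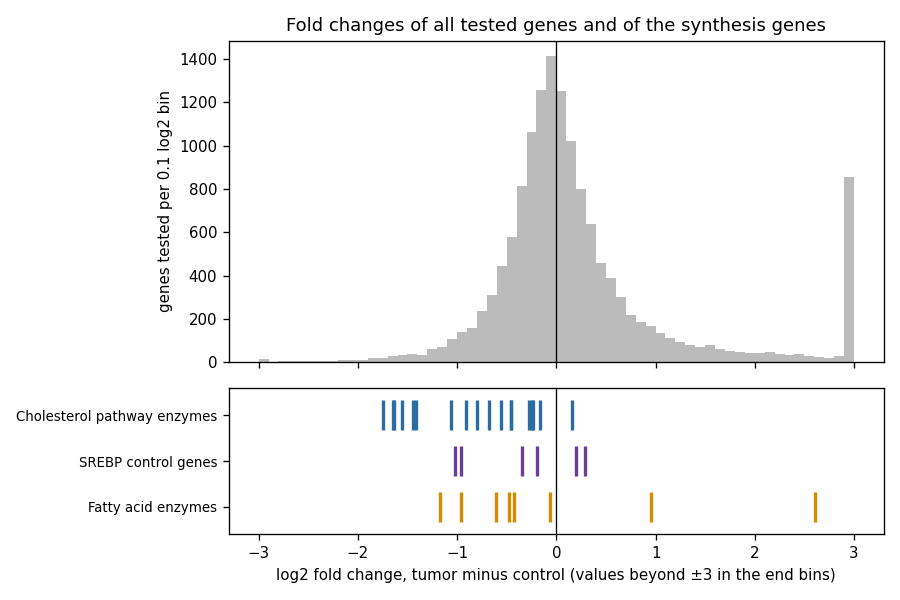
Upper panel, the number of tested genes (vertical axis) in bins of log2 fold change, tumor minus control (horizontal axis), with values beyond 3 in either direction gathered in the end bins. Lower panel, 1 tick per synthesis gene in 3 classes. All tested genes centered at 0.02, while the ticks of the cholesterol enzymes spread from -1.75 to 0.16 and those of the fatty acid enzymes from -1.17 to 2.61.

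Most AM markers were lower in tumor libraries too, and the size of each change depended on whether libraries were set equal over most genes, as TMM does, or over the AM markers. The AM markers included Ear1, which was higher with a tumor (784 against 404 CPM on average). They also included Ear2, which did not pass the test (1402 against 1440 CPM). A scaling without these genes was not tested. With library sizes set so that the 15 AM markers had an equal total in each library, the log2 fold change of each of the 32 genes rose, and the median of all tested genes moved by 0.39 to 0.41. Then 8821 genes were called higher and 1029 lower, so that 89.6% of calls were higher where 53.9% were under TMM. Under that scaling 14 of the 32 synthesis genes were called lower, against 7.22% of all tested genes, and 9 were called higher, against 61.9% of all tested genes. The 14 were among the 24 called lower under TMM and comprised Hmgcs1, Idi1, Fdft1, Sqle, Lss, Cyp51, Msmo1, Hsd17b7, Sc5d, Insig1, Stard4, Acaca, Fasn and Elovl6. The 3 called higher under TMM, Scap, Scd1 and Fads2, were called higher under both. Mvd, Ebp and Srebf1 were called lower under TMM and higher under AM marker scaling, and the other 7 genes called lower under TMM were not called. Pmvk (0.55), Insig2 (0.58) and Acly (0.33), which did not pass under TMM, were called higher under AM marker scaling. By class, 9 of 18 cholesterol enzymes were then lower and 3 higher, 2 of 6 SREBP control genes lower and 3 higher, and 3 of 8 fatty acid enzymes lower and 3 higher. All values below are under TMM unless the other scaling is named.

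**Figure D2:**
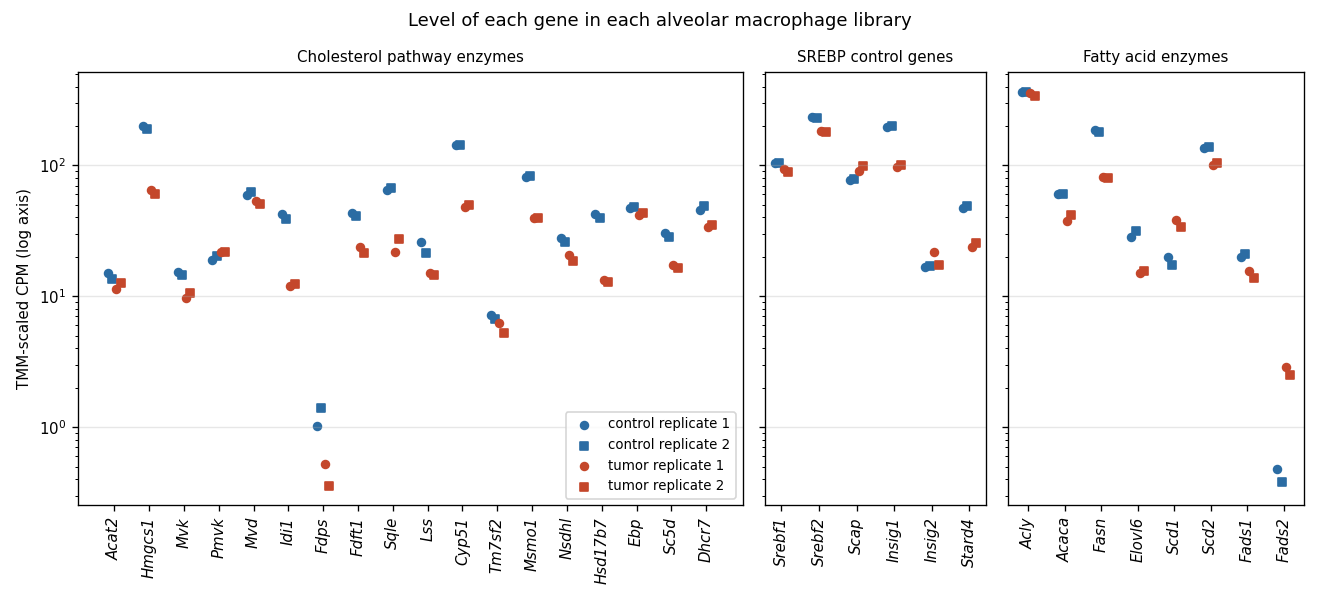
Level of each of the 32 genes in TMM-scaled CPM (vertical axis, log scale) in the 4 libraries, blue for control, red for tumor, circles for replicate 1 and squares for replicate 2. The red points lie clearly below the blue ones for Hmgcs1, Idi1, Sqle, Cyp51, Hsd17b7, Insig1 and Fasn, and above them for Scd1 and Fads2.

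Of the enzymes up to farnesyl diphosphate, Hmgcs1 and Idi1 changed most. Hmgcs1 (HMG-CoA synthase, chromosome 13, 119690379 to 119708260, plus strand, as listed in the table) was at 199.6 and 188 CPM in the control libraries and at 64.3 and 60.3 CPM in the tumor libraries. Both tumor libraries were at 32.1% of the control level on average, far outside the spread between replicates: 194 ± 8.24 CPM against 62.3 ± 2.82 CPM (SD, n = 2 each). The edgeR log2 fold change was -1.64 ± 0.0455 (SE), adjusted p = 5.24e-22, a 3.12-fold lower level. Idi1, the isopentenyl diphosphate isomerase on chromosome 13 (8885501 to 8892451, plus strand), was at 42.6 and 38.7 CPM in control against 11.9 and 12.3 CPM in tumor libraries. It had the strongest decrease of the 32 genes, with a log2 fold change of -1.75 ± 0.0946 and an edgeR adjusted p of 2.86e-15, which left 29.8% of the control level. Both remained lower under AM marker scaling, Hmgcs1 by -1.25 and Idi1 by -1.36 on the log2 scale.

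The other enzymes up to farnesyl diphosphate changed less or were poorly measured. Mvk, mevalonate kinase, fell from 14.9 ± 0.611 to 10.1 ± 0.564 CPM, a log2 fold change of -0.56 (edgeR adjusted p = 0.000444). Mvd, mevalonate diphosphate decarboxylase, was at 59.8 and 62.5 CPM in control and 53.1 and 50.6 CPM in tumor libraries, a log2 fold change of -0.24 (edgeR adjusted p = 0.00181) that turned to 0.15 under AM marker scaling. Between these enzymes in the pathway, Pmvk (phosphomevalonate kinase) did not pass the test at 19.6 ± 0.983 against 21.9 ± 0.0158 CPM, and neither did Acat2 (acetoacetyl-CoA thiolase, which joins acetyl-CoA units at the start of the pathway) at 14.2 ± 0.975 against 12.1 ± 0.888 CPM. Fdps, farnesyl diphosphate synthase, had only 19 and 22 counts in control against 9 and 7 in tumor libraries. Its log2 fold change of -1.44 ± 0.492 (edgeR adjusted p = 0.0149) therefore had the widest error of the 32 genes. The call was lost, with adjusted p from 0.0766 to 0.236, when control replicate 1, control replicate 2 or tumor replicate 2 was left out. Of the bases in its exons, 26.7% are shared with Gm43738, a gene of the same strand that had 0 counts in 3 libraries and 1 count in tumor replicate 2.

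From squalene to lanosterol all 3 enzymes were lower. Sqle, squalene epoxidase (chromosome 15, 59315077 to 59331192, plus strand), was at 64.6 and 67.1 CPM in control and at 21.7 and 27.3 CPM in tumor libraries. Its tumor libraries lay further from each other than those of Hmgcs1 did, but both were far below either control library. Its log2 fold change was -1.42 ± 0.0816 (edgeR adjusted p = 1.18e-14). Fdft1, squalene synthase, fell from 42.1 ± 1.20 to 22.5 ± 1.71 CPM, or to 53.2%. In 18.3% of its exon bases Fdft1 overlaps Ctsb, an abundant lysosomal protease gene on the opposite strand with 23528 to 34088 counts per library, and within these bases the reads of the genes cannot be told apart without strand information. Lss, lanosterol synthase, fell from 23.6 ± 3.32 to 14.8 ± 0.387 CPM, or to 62.5%, both with edgeR adjusted p of at most 6.54e-06.

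Among the enzymes that turn lanosterol into cholesterol, Cyp51, Hsd17b7 and Msmo1 stood lowest relative to control. Cyp51, lanosterol demethylase (chromosome 5, 4081145 to 4104746, minus strand), was at 143.5 and 144.0 CPM in the control libraries and 48.4 and 49.4 CPM in the tumor libraries. The libraries of each group were nearly equal, and the groups differed by a log2 fold change of -1.55 ± 0.0478 (edgeR adjusted p = 6.24e-21). Hsd17b7, a ketosteroid reductase (chromosome 1, 169949535 to 169969241, minus strand), was at 42.3 and 39.3 CPM in control against 13.3 and 12.8 CPM in tumor libraries, 31.9% of control (log2 fold change -1.65 ± 0.0921). Msmo1, methylsterol monooxygenase, was at 81.8 and 83.5 CPM against 39.6 and 39.4 CPM, or 47.8%. The 3 genes stayed lower under AM marker scaling, with log2 fold changes of -1.17 for Cyp51, -1.26 for Hsd17b7 and -0.68 for Msmo1.

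The other enzymes that act after lanosterol changed by smaller amounts. Sc5d, a sterol desaturase, fell to 57.5% of control (29.3 ± 1.27 to 16.9 ± 0.728 CPM), Dhcr7, which reduces the last double bond on the way to cholesterol, to 72.9% (47.3 ± 2.63 to 34.4 ± 0.486 CPM), and Nsdhl, a sterol dehydrogenase, to 73.0% (26.8 ± 1.38 to 19.6 ± 1.42 CPM). Of these 3, only Sc5d was also called lower under AM marker scaling. Ebp, the sterol isomerase, was at 47.0 and 48.2 CPM in control against 41.5 and 43.5 CPM in tumor libraries, with an edgeR adjusted p of 0.0474 next to the threshold. Without control replicate 1, control replicate 2 or tumor replicate 1 the call of Ebp was lost, with adjusted p from 0.0935 to 0.148. Tm7sf2, a sterol reductase, did not pass the test at 6.93 ± 0.306 against 5.74 ± 0.698 CPM.

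**Figure D3:**
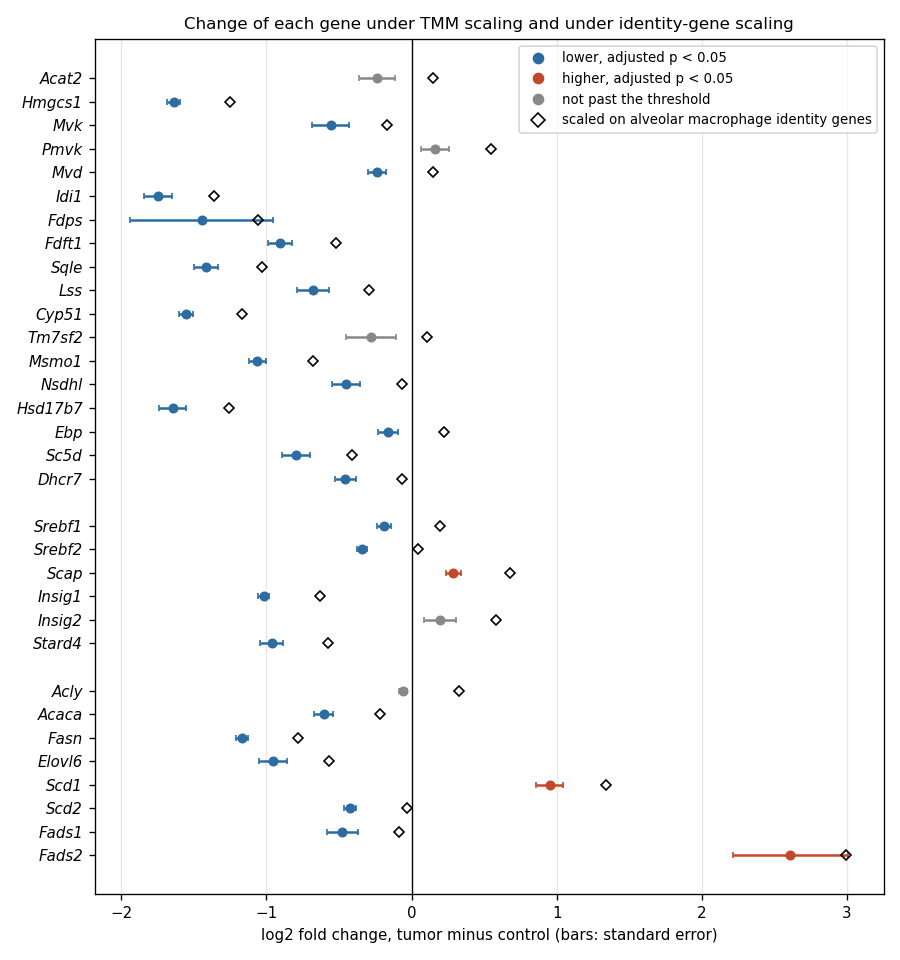
Log2 fold change, tumor minus control (horizontal axis), of the 32 genes in 3 blocks, cholesterol enzymes, SREBP control genes and fatty acid enzymes from top to bottom. Filled points are TMM values with bars of 1 standard error, colored by the edgeR call at an adjusted p of 0.05, and open diamonds are values with libraries scaled on the AM markers. Hmgcs1 moved from -1.64 to -1.25 and stayed below 0, while Mvd moved from -0.24 to 0.15.

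Levels of different genes were compared per kilobase of the gene length given in the table. In control AMs, Acly was highest among the 32 genes at 68.5 CPM per kb, followed by Insig1 at 64.5 and Hmgcs1 at 42.2 ± 1.79 CPM per kb. Mvd at 32.9 ± 1.04 CPM per kb could not be separated from Cyp51 at 32.5 or Srebf2 at 32.2 CPM per kb within its own spread. In tumor AMs, Acly at 65.8 and Insig1 at 31.8 CPM per kb were still the highest, but Hmgcs1 had moved from place 3 to place 8 at 13.6 CPM per kb and Cyp51 from place 5 to place 11 at 11.1 CPM per kb. Mvd, at 27.9 CPM per kb, then stood above both. Fdps was at 0.286 CPM per kb in control and 0.104 CPM per kb in tumor AMs, the lowest of the 32 genes in tumor AMs.

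Other genes that act beside the cholesterol enzymes were given by a list of 17 genes, of which 15 were tested, and 12 of these were lower and 2 higher, with a median log2 fold change of -0.23, where 24.8% of all tested genes were lower and 29% higher. Under AM marker scaling 5 were lower and 10 higher, with a median of 0.15. That scaling called 7.22% of all tested genes lower and 61.9% higher, with a median of 0.41. The 2 higher genes were Lbr and Soat2. Lbr, the lamin B receptor, which also has sterol reductase activity, was at 12.2 and 13.9 CPM in control against 119 and 124 CPM in tumor libraries, and Soat2, which esterifies cholesterol, had 12 and 18 counts against 185 and 193 counts.

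Promoter sequences are shown for 6 genes that the results turn on: Idi1, Hsd17b7 and Hmgcs1, the cholesterol enzymes with the strongest decreases, Insig1 and Fasn with the strongest decrease of their classes, and Fads2 with the strongest increase. RefSeq (mouse build GRCm38.p6) gave the 250 bases before the start site for 25 of the 32 genes, 15 of them cholesterol enzymes, and for 20484 genes in all. These bases were searched on both strands for a sterol regulatory element (TCACNCCAC), a CCAAT box (CCAAT), a GC box (GGGCGG) and an E-box (CACGTG), motifs that were chosen after the gene levels had been seen. The sterol regulatory element in this spelling was found in 1 of the 25, Hmgcs1, 137 to 129 bases before its start, and in 1.06% of all promoters. The CCAAT box was in 18 of the 25 (72.0%), 13 of them among the 15 cholesterol enzymes, and in 35.2% of all promoters. The GC box was also in 18 of the 25 (72.0%), 14 of them among the 15 cholesterol enzymes, and in 39.5% of all promoters. The E-box was in 3 of the 25, Hsd17b7, Sc5d and Insig1, and in 6.43% of all promoters. A match is a description of these letters and not a measured binding site. The shares cover genes with and without expression in AMs, and the share over only the tested genes was not computed. For Acaca and Tm7sf2, counted among the 25, the RefSeq start lay 65766 and 9347 bases past the first base listed in the table. The sequences run 5′ to 3′ on the strand of the gene, and stop before the start site of RefSeq or the first base listed in the table, whichever comes earlier, with the matches of these motifs on either strand in capitals.
Hmgcs1, chr13:119690101-119690350, plus strand: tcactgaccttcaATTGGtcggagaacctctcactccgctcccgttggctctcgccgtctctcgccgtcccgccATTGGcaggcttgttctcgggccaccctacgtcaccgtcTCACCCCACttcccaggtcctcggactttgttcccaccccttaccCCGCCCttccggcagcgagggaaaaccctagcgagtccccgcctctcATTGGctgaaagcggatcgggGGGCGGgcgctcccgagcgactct
Idi1, chr13:8885356-8885500, plus strand: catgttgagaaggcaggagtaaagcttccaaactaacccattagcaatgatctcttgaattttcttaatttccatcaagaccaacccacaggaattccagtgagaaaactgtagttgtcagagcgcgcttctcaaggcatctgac
Hsd17b7, chr1:169969242-169969455, minus strand: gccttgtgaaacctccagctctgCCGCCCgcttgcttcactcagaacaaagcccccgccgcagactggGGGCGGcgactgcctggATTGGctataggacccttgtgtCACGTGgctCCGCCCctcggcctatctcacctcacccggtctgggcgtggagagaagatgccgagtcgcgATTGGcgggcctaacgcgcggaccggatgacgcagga
Insig1, chr5:28071162-28071362, plus strand: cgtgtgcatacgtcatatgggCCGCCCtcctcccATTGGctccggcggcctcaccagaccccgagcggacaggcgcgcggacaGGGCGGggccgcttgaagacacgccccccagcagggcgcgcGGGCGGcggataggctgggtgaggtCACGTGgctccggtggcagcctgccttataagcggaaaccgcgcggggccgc
Fasn, chr11:120824548-120824797, minus strand: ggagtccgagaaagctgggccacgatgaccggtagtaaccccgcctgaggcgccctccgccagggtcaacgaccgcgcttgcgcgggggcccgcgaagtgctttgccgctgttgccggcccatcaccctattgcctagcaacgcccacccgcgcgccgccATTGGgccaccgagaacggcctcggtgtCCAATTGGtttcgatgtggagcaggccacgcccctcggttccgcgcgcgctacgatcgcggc
Fads2, chr19:10101504-10101753, minus strand: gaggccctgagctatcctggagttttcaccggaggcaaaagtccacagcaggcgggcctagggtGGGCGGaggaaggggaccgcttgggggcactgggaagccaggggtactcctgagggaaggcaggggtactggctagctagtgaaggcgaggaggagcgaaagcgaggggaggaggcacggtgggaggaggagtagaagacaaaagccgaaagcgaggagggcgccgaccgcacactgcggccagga
Hmgcs1 holds the sterol regulatory element beside 3 CCAAT boxes on the reverse strand, and Hsd17b7 and Insig1 hold the E-box. The Idi1 stretch shows no match, since the CCAAT and GC boxes counted for it lie 69 to 10 bases before the RefSeq start, past the first base that the table lists for the gene. In the Fasn sequence CCAAT and its reverse complement overlap, and Fads2 shows a GC box and no CCAAT box. Elovl6 and Dhcr7, which were called lower, had no CCAAT box in the searched bases either. Insig2, which did not pass the test, had the CCAAT box.

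Among the 6 genes that control the pathway or carry its product, Insig1 and Stard4 were lowest relative to control. Insig1, which holds SCAP in the endoplasmic reticulum and is itself an SREBP target, was at 198 and 201.2 CPM in the control libraries and at 96.8 and 99.99 CPM in the tumor libraries. The groups were apart by many times the spread between replicates, with a log2 fold change of -1.02 ± 0.0387 (edgeR adjusted p = 8.38e-19). Insig2, its relative, did not pass the test, at 16.8 and 17.1 CPM in control against 21.6 and 17.4 CPM in tumor libraries (log2 fold change 0.20 ± 0.112). Per kilobase, the ratio of Insig1 to Insig2 was 13.2 in each control library against 5.03 and 6.46 with a tumor. Stard4, which carries cholesterol between membranes, was at 47.5 and 49.2 CPM against 23.8 and 25.6 CPM, or 51.2% of control. Both Insig1 and Stard4 stayed lower under AM marker scaling, at -0.63 and -0.58 on the log2 scale.

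The SREBP genes and Scap moved less. Srebf2, which encodes the SREBP that mainly drives cholesterol genes, fell from 231 ± 1.11 to 182 ± 2.69 CPM, or to 78.8%, and Srebf1, which encodes the SREBP that mainly drives fatty acid genes, from 104 ± 0.274 to 91.6 ± 2.99 CPM, or to 87.6%. Under AM marker scaling neither was lower, with log2 fold changes of 0.04 for Srebf2, which was not called, and 0.20 for Srebf1, which was called higher. The ratio of Srebf1 to Srebf2 per kilobase was 0.575 and 0.577 in control and 0.648 and 0.632 in tumor libraries. Scap was higher in tumor AMs, at 90.3 and 99.6 CPM against 77.6 and 78.1 CPM in control libraries (log2 fold change 0.29 ± 0.0519, edgeR adjusted p = 2.89e-05).

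Genes that move, cut or degrade SREBP, SCAP or INSIG were given by a list of 14 genes, all tested, of which 3 were higher and 2 lower, with a median of 0.08. The 5 called were 35.7% of the list, against 53.8% of all tested genes. In place of these 5, 10 were called with total counts as library sizes, where 53.6% of all tested genes were, and 12, all higher, under AM marker scaling, where 69.1% were. The lower genes were Mbtps2 and Erlin2, and Rnf145 was among the higher ones. Rnf145, a ubiquitin ligase of the endoplasmic reticulum, was at 39.9 and 38.0 CPM in control against 54.7 and 54.1 CPM in tumor libraries. Mbtps2, the protease that makes the last cut in SREBP, was at 43.6 and 41.3 CPM against 34.2 and 31.5 CPM, and Erlin2, a protein bound to the complex, at 79.4 and 74.2 CPM against 66.1 and 63.5 CPM. These differences were smaller than that of Insig1 in size, and the decreases of Mbtps2 and Erlin2 turned to 0.01 and 0.14 under AM marker scaling.

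Among the fatty acid enzymes, those that build saturated chains were lower and the desaturases were split. Fasn, fatty acid synthase (chromosome 11, 120805846 to 120824547, minus strand), was at 187 and 178 CPM in the control libraries and at 82.1 and 80.3 CPM in the tumor libraries. The tumor level was 44.4% of control, with a log2 fold change of -1.17 ± 0.0418 (edgeR adjusted p = 2.02e-19), the strongest decrease among the 8. Elovl6, which lengthens saturated chains, was at 28.1 and 31.2 CPM against 15.0 and 15.5 CPM, and Acaca, the carboxylase that makes malonyl-CoA, at 60.7 and 60.4 CPM against 37.8 and 41.6 CPM. Fasn, Elovl6 and Acaca stayed lower under AM marker scaling, at -0.78, -0.57 and -0.22 on the log2 scale. Acly, which makes acetyl-CoA from citrate and so feeds both pathways, did not pass the test, at 362 ± 1.30 CPM in control and 347 ± 9.59 CPM in tumor AMs (log2 fold change -0.06 ± 0.0283, edgeR adjusted p = 0.0791).

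The desaturases of each pair went in opposite directions. Scd1, a stearoyl-CoA desaturase that adds a double bond to saturated chains (chromosome 19, 44394451 to 44407709, minus strand), was at 20.1 and 17.2 CPM in control and 38.5 and 34.0 CPM in tumor libraries, 1.93-fold higher (log2 fold change 0.95 ± 0.0945, edgeR adjusted p = 1.38e-09). Its neighbor Scd2, on the plus strand of the same chromosome (44293676 to 44306864), was at 135.7 and 138.6 CPM in control and 100.02 and 104 CPM in tumor libraries, a fall to 74.6%. Scd2 remained the more abundant form, and the ratio of Scd1 to Scd2 per kilobase was 0.167 and 0.140 in control against 0.434 and 0.367 in tumor libraries. These genes are close relatives, and reads that match both could have been divided between them. Under AM marker scaling Scd2 was at -0.03 on the log2 scale and not called, and Scd1 at 1.34.

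Fads1 and Fads2 encode the desaturases that act in turn on polyunsaturated fatty acids and lie next to each other on chromosome 19. Fads2 (10064164 to 10101503, minus strand) had 9 and 6 counts in control against 50 and 49 in tumor libraries, or 0.480 and 0.380 CPM against 2.89 and 2.50 CPM. It was the strongest increase of the 32 genes, 6.11-fold (log2 fold change 2.61 ± 0.396, edgeR adjusted p = 2.42e-06), at a level that remained low. Fads1 (10182888 to 10196870, plus strand) was at 20.1 and 20.9 CPM in control against 15.7 and 13.8 CPM in tumor libraries, 71.8% of control, and was not called under AM marker scaling. Per kilobase, Fads1 exceeded Fads2 by 18.2 and 23.999 times in the control libraries and by 2.37 and 2.40 times in the tumor libraries. For these ratios within pairs, an exact permutation test of 2 against 2 libraries cannot give a p below 0.333, so they are given as values.

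**Figure D4:**
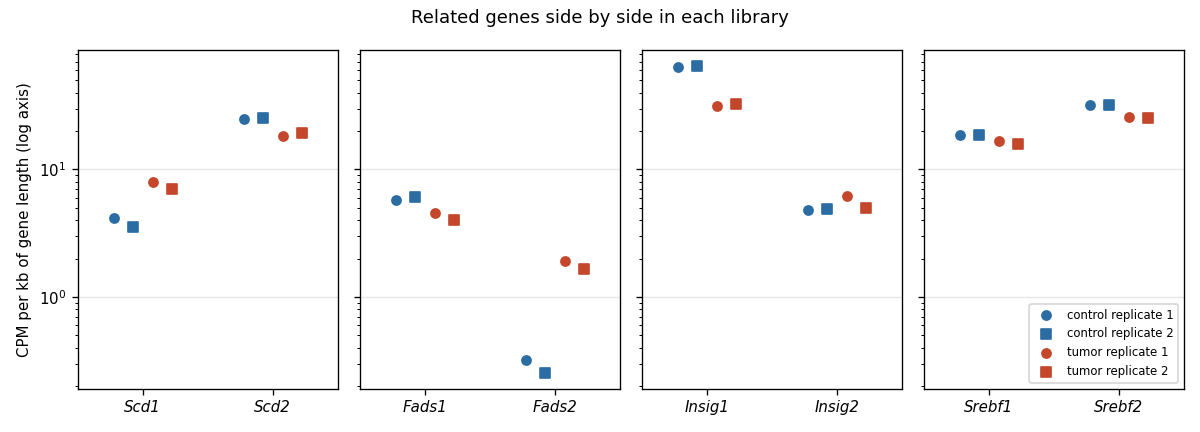
Level in CPM per kilobase of gene length (vertical axis, log scale) of 4 pairs of related genes in the 4 libraries, blue for control, red for tumor, circles for replicate 1 and squares for replicate 2. Scd1 and Fads2 are higher in the tumor libraries while Scd2 and Fads1 are lower, Insig1 is lower while Insig2 is not, and both SREBP genes are slightly lower.

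A list of 24 other fatty acid genes had 19 genes tested, with 5 higher and 5 lower and a median log2 fold change of 0.01. The 52.6% called were near the 53.8% of all tested genes. Under AM marker scaling 13 were higher and 1 lower, where 61.9% of all tested genes were higher and 7.22% lower. Of the calls, 92.9% were then higher, near the 89.6% over all tested genes. Acss2, which makes acetyl-CoA from acetate, was at 5.49 and 5.64 CPM in control against 19.1 and 18.3 CPM in tumor libraries, a log2 fold change of 1.75 ± 0.134. Acsl4, which activates polyunsaturated fatty acids, was at 185 and 173 CPM against 95.9 and 93.1 CPM, and Slc25a1, which exports citrate from mitochondria, at 52.2 and 54.3 CPM against 37.0 and 41.8 CPM. Elovl3, another elongase, was at 0 counts in each control library against 19 and 26 counts with a tumor, at least 5.77-fold higher when 3 counts per control library are taken as the limit.

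Oxysterols also act through the liver X receptors (LXRs), which raise cholesterol export and Srebf1. Of 9 LXR receptors, partners and target genes, 6 were lower and 2 higher, with a median of -0.27, where 24.8% of all tested genes were lower and 29% higher. Under AM marker scaling 3 were lower and 5 higher, with a median of 0.12. Of all tested genes, 7.22% were then lower and 61.9% higher, with a median of 0.41. Abca1, a cholesterol exporter, was at 365 and 355 CPM in control against 236 and 217 CPM in tumor libraries, and Pltp, a phospholipid transfer protein, at 263 and 265 CPM against 162 and 157 CPM. Abcg1, another cholesterol exporter, was more abundant and changed little, at 1679 and 1736 CPM in control against 1651 and 1653 CPM in tumor libraries (96.8% of control). Nr1h3, which encodes LXR alpha, was at 33.8 CPM in both control libraries against 20.6 and 23.8 CPM with a tumor. The higher genes were Nr1h2, which encodes LXR beta, and Rxra, which encodes the shared partner.

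The AM markers and the synthesis genes were lower together, but by unequal amounts. The summed cholesterol enzymes stood at 50.2% of control, below the 76.4% of the AM markers, while the fatty acid enzymes at 78.8% and the SREBP control genes at 75.4% stood near it. Such sums weigh abundant genes most. Single AM markers ranged in log2 fold change from -2.13 to 0.96, and Fabp4 was at 22.9% and Car4 at 50.1% of control. The median was -0.47 for the AM markers, -0.74 for the cholesterol enzymes and -0.52 for all 32 synthesis genes. Acly, which did not pass the test, made up much of the fatty acid sum, and the other 7 enzymes summed to 452 and 447 CPM in control against 292.03 and 292.08 CPM in tumor libraries, 65.0% of control. Markers of alveolar type 2 cells, which make surfactant and its lipids, summed to 221 and 220.2 CPM in control and 190.3 and 196 CPM in tumor libraries, but nearly all of this was Abca3, a lipid transporter, at 214 and 213 CPM against 184 and 188 CPM. Sftpc, which encodes a surfactant protein particular to these cells, was at 2.72 and 2.09 CPM in control against 2.77 and 3.87 CPM in tumor libraries and did not pass the test, and of the 5 markers tested Abca3, Sftpb and Sftpa1 were called lower. Adipocyte markers were at 2.50 to 3.04 CPM in sum in all 4 libraries, and of the 6, 5 were at or below 3 counts in both control libraries and 3 in both tumor libraries. Cycling cell markers summed to 214 and 213 CPM in control and 195 and 196 CPM in tumor libraries, with 1 of 6 higher and 1 lower. Interstitial macrophage and monocyte markers summed to 34.7 CPM in each control library against 28.8 and 31.3 CPM with a tumor. Within that list C1qa, C1qb, C1qc and Cx3cr1 were called lower, by 1.82-fold to 3.27-fold, while Ccr2 and Ly6c2, found on inflammatory monocytes, were called 2.52-fold and 5.49-fold higher. T cell markers summed to 3.57 and 4.18 CPM in control against 10.5 and 11.6 CPM in tumor libraries, and B cell markers to 20.2 and 18.4 against 41.3 and 43.7 CPM.

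**Figure D5:**
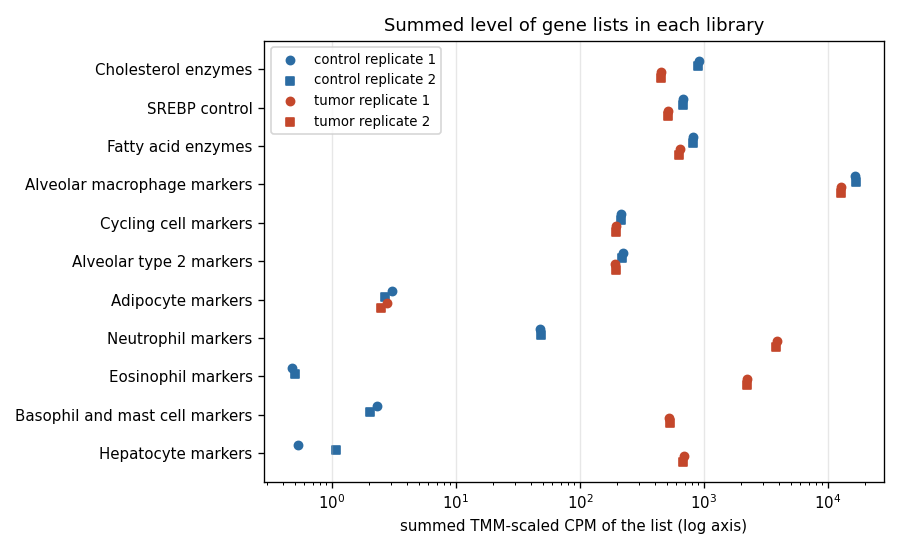
Summed TMM-scaled CPM (horizontal axis, log scale) of the 3 classes of synthesis genes and of marker lists, 1 point per library, blue for control, red for tumor, circles for replicate 1 and squares for replicate 2. The cholesterol enzymes lie at 452 to 454 CPM in tumor against 893 to 911 CPM in control libraries, and the neutrophil, eosinophil, basophil and mast cell, and hepatocyte lists lie far higher in the tumor libraries.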

How the data were processed

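Per the labels, TRIzol was used for total RNA and a NEBNext Ultra RNA kit for the libraries. The authors aligned paired-end HiSeq reads with HISAT2 (version 2.0.5 per the submitters' processing notes), counted them with featureCounts and deposited raw counts per gene. The genome build, annotation, strand setting and handling of multiply mapping reads are not given in the sources used here. Coordinates in the table were those of GRCm38 for 27 of the 32 genes when compared with GENCODE M21, and for 98.3% of the genes matched by identifier.

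Here, genes were filtered with filterByExpr at a minimum count of 10, which kept 14256 of 54532 genes and all 32 synthesis genes. Libraries were scaled by TMM, and the 2 tumor and 2 control libraries were compared with the quasi-likelihood test of edgeR 4.0.16 in R 4.3.3, with 2 residual degrees of freedom and Benjamini-Hochberg adjustment over all genes tested. SE was taken as |log2 fold change|/√F. Alternatives with limma 3.58.1, DESeq2 1.42.0, other scalings, filters, a replicate block and libraries left out are given at the end. The replicates of a group differed by more than sampling noise, with a chi-square per gene of 1.81 in control and 2.30 in tumor libraries, so each counted as 1 sample. The genes and lists described, including the marker lists, were chosen with earlier results of these data known. All 32 genes are named, and from each further list the 3 genes called with the largest change and more than 3 counts in a library of each group. A few genes that this rule names are not reported here. Nr1h2, Rxra, Abcg1, Elovl3 and the markers named beside the most abundant of their list were named after their values were seen. Counts give counting error only, since no molecular identifiers are stated.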

Additional observations from a re-analysis of the deposited data

How the results depend on the processing

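No synthesis gene changed its direction or its side of the threshold under DESeq2 size factors, without the filter on low counts, under limma-voom or with the replicate block. The block gave 7446 calls among all genes, and the other 3 settings 7582 to 7917. Replicate numbers of the labels were shared by the groups, but same-numbered libraries did not deviate together (r = -0.00278 across 14256 genes, which are not independent), so the blocked fit is no paired design. With the DESeq2 Wald test 25 of the 32 genes and 5858 genes in all were called, Ebp (adjusted p = 0.176) and Fdps (adjusted p = 0.111) being lost. With at least 10 counts required in every library, Fdps and Fads2 were not tested and Ebp was lost (adjusted p = 0.0987). With 1 library left out, where the lone library of its group is assumed to vary like the other group, 25 to 27 of the 32 genes were called, 22 to 24 lower and 3 to 4 higher, and 6515 to 7470 genes in all. Insig2 was then called higher without tumor replicate 2 (log2 fold change 0.35) and Acly lower without tumor replicate 1 (-0.09). With total counts as library sizes, Acly turned to 0.0074, Ebp was lost (adjusted p = 0.253), and 10 genes that move or cut SREBP were called.

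With libraries scaled on the AM markers, 14 synthesis genes were lower and 9 higher (7.22% and 61.9% of all tested genes), and 12 genes that move or cut SREBP were called. Directions turned for Acat2 (0.15), Mvd (0.15), Tm7sf2 (0.11), Ebp (0.23), Srebf1 (0.20), Srebf2 (0.044), Acly (0.33), Mbtps2 (0.014) and Erlin2 (0.14). With a change of at least 1.5-fold required as well, 17 synthesis genes were called, 15 of them lower, and 2 SREBP control genes. The count was then 3607 for all genes, 7 for the other cholesterol genes, 0 for the genes that move or cut SREBP, 3 for the LXR genes and 4 for the other fatty acid genes. Of the 27 synthesis genes called, Fdps was called in 6 of the 11 alternatives that could test it and Ebp in 6 of 12, and Mvd, Ebp and Srebf1 turned from lower to higher with the AM marker scaling. Fads2, with few counts in control libraries, was called in all 11 that could test it (log2 fold change 2.45 to 2.995).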
